A study of Homo sapiens with 39 samples.

Results

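Integrin and laminin chains are 38 of the 60671 genes in the deposited table. They are the 26 protein-coding genes whose symbols name an integrin chain (18 alpha chains, symbols beginning ITGA, and 8 beta chains, beginning ITGB) and the 12 that name a laminin chain (5 alpha, 4 beta and 3 gamma chains). Their RNA was measured by RNA-seq in 39 libraries from cultured human melanoma cells of skin, the established lines A375 and WM115. Each line has a wild-type group (WT) and edited clones with the genotype label R1_del or R4_del, a deletion in a region that the study's design calls an enhancer of SOX10, the transcription factor of melanocytes and their neural crest precursors. The A375 groups are WT (4 libraries), the R1_del clones numbered 1.1 (3) and 1.2 (4), and the R4_del clones numbered 4.1 (4) and 4.2 (3). The WM115 groups are WT (4), 1.1 (5) and 1.2 (3) with R1_del, 4.1 (3) and 4.2 (3) with R4_del, and 1.3 (3). The titles number the clones without saying how each was isolated, and clone 1.3 of WM115 is numbered like the R1 clones but carries the genotype R4_del, so it was kept apart and enters no comparison of regions. Each number stands for 1 clone, so every test against WT is of a single clone, and its p-value measures only the spread between these libraries, which may be technical.

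An integrin is a pair of 1 alpha and 1 beta chain in the plasma membrane that binds matrix outside the cell and connects, through talin, kindlin and other adaptors, to actin inside it. The alpha chain largely sets the ligand: alpha3, alpha6 and alpha7 bind laminins, alpha1, alpha2, alpha10 and alpha11 bind collagens, and alphaV and alpha5 bind proteins with an RGD motif such as fibronectin and vitronectin. A laminin is a trimer of 1 alpha, 1 beta and 1 gamma chain and is a main building block of basement membranes, the sheets that melanocytes sit on and that invading melanoma cells must cross.

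Levels are given in TPM, which are scaled to the same total in every library and corrected for transcript length and so can be compared between genes. Read counts were not used here, so the depth is unknown. The mitochondrial genome supplied 0.968% to 4.92% of the TPM of an A375 library. It supplied 13.7% to 15.6% in the WM115 WT libraries, 19.4% in library 3 of clone 1.3 and 4.71% to 14.4% in the other WM115 clone libraries, so this share was higher in WT than in most clone libraries. Cytosolic ribosomal protein genes took 12.0% to 13.6% of the TPM in WM115 WT and 11.5% in library 3 of clone 1.3. All other WM115 clone libraries were at 16.2% or more, and the part of this difference in the calls against WT was not tested. Calls were also made within libraries of low or of high share, and their number is given for the tested clones in which it changed. WM115 clone 4.1 could not be tested in this way. It had 1 library of high share and 2 of low share, and 0 WT libraries of WM115 were of low share. Shares still differed within the high set of WM115, with clone 1.2 at 8.75% to 11.8% and WT at 13.7% to 15.6%. SOX10 was at 9.56 TPM in library 3 of WM115 clone 1.2 and at 272 to 876 TPM in all other libraries. Library 3 of WM115 clone 1.2 stood apart, with a summed level of 8 melanocytic markers of 40.7 TPM against 992 and 1180 TPM in the other libraries of that clone, so the chains called, the laminin alpha shares and the counts of 3 gene lists in that clone are given with and without it. Among 7 leukocyte markers, 3 were under 1 TPM in all libraries, PTPRC (CD45) did not pass 0.483 TPM, and CD68, a lysosomal protein, reached 757 TPM. The summed level of 6 fibroblast markers was 4.81 to 21.7 TPM in A375 and 374 to 863 TPM in WM115. COL1A2 alone reached 857 TPM, while LUM did not pass 26.4 TPM, PDGFRB 11.4 TPM, COL1A1 4.55 TPM, DCN 4.34 TPM and PDGFRA 3.34 TPM. Of 4 platelet, 4 endothelial and 4 keratinocyte markers, 3, 2 and 3 were under 1 TPM in all libraries. The others reached 1.92 TPM (GP1BA, platelet), 12.0 and 4.04 TPM (PECAM1 and CDH5, endothelial) and 30.4 TPM (KRT14, keratinocyte). In bulk RNA, fewer cells of a type and less RNA per cell cannot be told apart.

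Promoters are shown for ITGA11, ITGA2 and ITGA6, chains of collagen and laminin receptors, because these genes were higher than WT in both R4 clones of WM115. The sequences are the 250 bases before the RefSeq start (GRCh38.p14), written 5′ to 3′ on the gene's strand, and capitals mark GC boxes (GGGCGG or, on the other strand, CCGCCC).
ITGA11, chr15:68432164-68432413, minus strand: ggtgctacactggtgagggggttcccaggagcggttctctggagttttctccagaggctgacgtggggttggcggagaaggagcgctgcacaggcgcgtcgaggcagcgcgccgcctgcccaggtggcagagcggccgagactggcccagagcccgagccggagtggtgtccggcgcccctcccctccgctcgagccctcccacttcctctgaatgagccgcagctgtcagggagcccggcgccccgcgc
ITGA2, chr5:52989102-52989351, plus strand: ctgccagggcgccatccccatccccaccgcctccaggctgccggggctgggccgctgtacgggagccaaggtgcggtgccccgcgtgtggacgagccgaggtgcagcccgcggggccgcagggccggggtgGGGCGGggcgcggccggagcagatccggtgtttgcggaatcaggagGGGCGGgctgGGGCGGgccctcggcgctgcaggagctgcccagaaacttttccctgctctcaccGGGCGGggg
ITGA6, chr2:172427086-172427335, plus strand: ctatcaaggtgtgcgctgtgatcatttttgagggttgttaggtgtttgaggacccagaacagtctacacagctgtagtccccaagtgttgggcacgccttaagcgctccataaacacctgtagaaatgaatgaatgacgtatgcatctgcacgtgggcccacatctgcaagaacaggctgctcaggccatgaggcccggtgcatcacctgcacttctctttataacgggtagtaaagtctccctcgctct
ITGA2 has 4 GC boxes in this window, beginning 119, 73, 63 and 9 bases before the start, and ITGA11 and ITGA6 have none. The RefSeq promoter table matched 26 of the 38 chains, and 13 of the 26 hold a GC box, against 42.6% of all 35116 promoters. The other motifs searched on both strands were a SOX motif (ACAAAG), the AP-1 site (TGANTCA), the TEAD motif (GGAATG) and the M-box of MITF (CATGTG). The SOX motif is in 0 of the 26 windows, against 13.7% of all promoters. The AP-1 site is in 1 of 26 (6.57% of all), the TEAD motif in 4 (11.9%) and the M-box in 3 (9.42%). The AP-1 sites are both in LAMA3, where 1 of them overlaps its M-box. The TEAD motif is in ITGA10, ITGA5, ITGB1 and LAMA2, and the M-box in ITGAE, ITGB7 and LAMA3. A match is a run of letters and does not show that a factor binds.

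Both lines expressed a broad set of chains. A total of 14 chains were at 10 TPM or more in all 39 libraries, and 4 were at 100 TPM or more in all: ITGA3, ITGB1, LAMB1 and LAMC1. ITGB1, the beta chain that pairs with most alpha chains, was at 143 to 436 TPM. ITGA3, the alpha chain of the laminin-binding integrin alpha3beta1, was at 139.9 to 583 TPM. LAMB1 and LAMC1, the beta and gamma chains of most laminins, were at 113 to 543 TPM and 102 to 398 TPM. Tests were limited to genes at 1 TPM or more in 3 or more libraries of a line, a rule met by 29 chains in A375 and 27 in WM115. Chains tested in neither line were ITGA2B, the platelet alphaIIb chain, ITGA8, ITGAD, ITGAL, ITGB6, ITGB7, LAMB4 and LAMC3, which reached at most 1.6 TPM. ITGAX and ITGB2 were tested in A375 only and ITGAM in WM115 only. ITGAX and ITGB2, chains of leukocyte integrins, ranged over 0.011 to 9.06 TPM and 0.017 to 2.08 TPM, and LAMA2, the alpha chain of muscle laminin, over 0.15 to 3.44 TPM. ITGA4 and ITGA9, which bind VCAM-1, osteopontin and other ligands, ranged over 18 to 80.0 TPM and 0.147 to 30.4 TPM. The alphaV partners ITGB3, ITGB5 and ITGB8 ranged over 31.8 to 409 TPM, 65 to 306 TPM and 12.7 to 84.4 TPM.

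**Figure D1:**
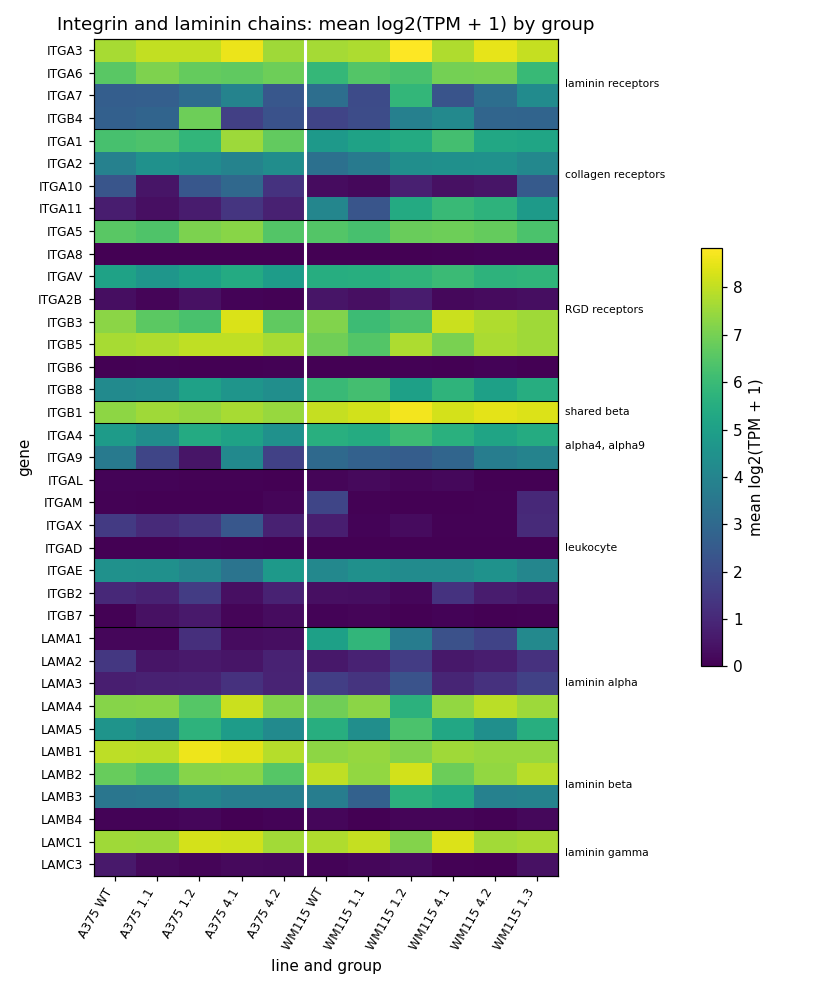
Mean log2(TPM + 1) of the chains (rows, ordered by role) in the 11 groups (columns, A375 left of the white line and WM115 right of it), with yellow for high and dark blue for low levels. ITGA3, ITGB1, LAMB1 and LAMC1 are high in all groups, LAMA1 is high in WM115 WT and low in the R4 clones 4.1 and 4.2, and ITGB4 is high in A375 clone 1.2.

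Within the laminin alpha chains, LAMA4, which vascular and other mesenchymal cells also make, took the largest mean share of the summed TPM of LAMA1 to LAMA5 in every group except WM115 clone 1.2. In the 3 libraries of that clone the LAMA4 share was 70.3%, 39.7% and 6.31% and the LAMA5 share 21%, 41.1% and 87.2%. LAMA5 was thus ahead in libraries 2 and 3. Without library 3 LAMA4 had the larger mean, 55% against 31.1%, through library 1. The LAMA4 share was 84.7% ± 7.26 (SD, n = 4) in A375 WT and 60.3% ± 7.93 (SD, n = 4) in WM115 WT. LAMA5, the alpha chain of most epithelial and vascular laminins, took 13.8% ± 6.98 (SD, n = 4) in A375 WT and 22.6% ± 4.84 (SD, n = 4) in WM115 WT. LAMA1, the alpha chain of embryonic laminin, took 0.0744% ± 0.0538 (SD, n = 4) and 15.8% ± 3.22 (SD, n = 4). The chains of the laminin that joins epithelium to its basement membrane were unequal in level: LAMB3 was at 2.64 to 68.9 TPM, while its partner LAMA3 did not pass 4.11 TPM. Among beta chains that pair with alphaV other than ITGB1, ITGB6 did not pass 0.119 TPM in any library. ITGB3, ITGB5 and ITGB8 took 43.3% ± 2.57 (SD, n = 4), 37.2% ± 3.29 (SD, n = 4) and 19.5% ± 2.7 (SD, n = 4) of the sum of the 4 genes in WM115 WT. In A375 WT the ITGB8 share was 4.91% ± 1.83 (SD, n = 4).

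**Figure D2:**
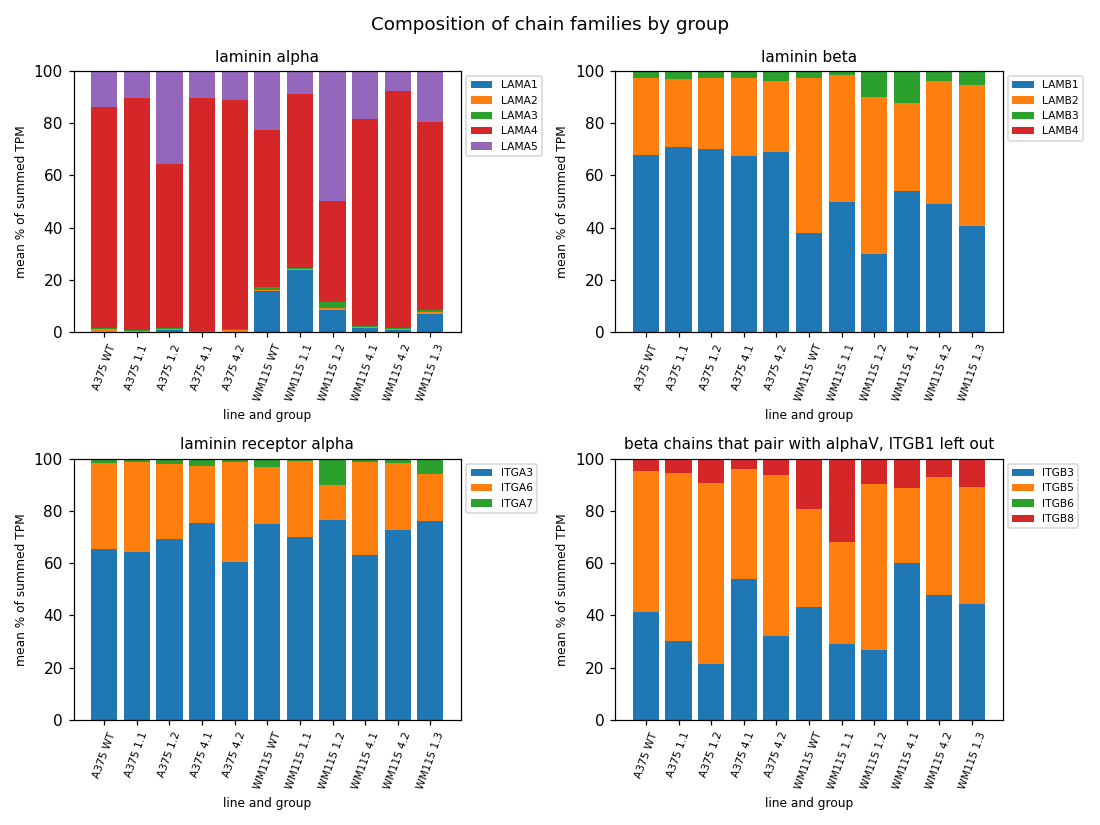
Mean share (%) of each chain in the summed TPM of its family, by group, for laminin alpha chains, laminin beta chains, laminin-binding alpha chains and the beta chains that pair with alphaV. LAMA4 fills most of the laminin alpha bar in most groups, and LAMA1 takes 15.8% in WM115 WT and 0.0744% in A375 WT. In WM115 clone 1.2 the LAMA5 bar is the largest, with LAMA5 ahead of LAMA4 in libraries 2 and 3, at 41.1% and 87.2%. LAMA4 leads in the mean of libraries 1 and 2 of that clone.

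The unedited lines differed in 7 of the 28 chains tested in that comparison. A call here and below means an adjusted p under 0.05 (limma, Benjamini-Hochberg over all tested genes) and a difference of at least 1 on the log2(TPM + 1) scale, and 22.7% (13.1% higher, 9.55% lower) of all 16126 genes were called. LAMA1 was at 31.4, 33.2, 24.9 and 37.6 TPM in the WM115 WT libraries and at 0.087, 0.039, 0.158 and 0.18 TPM in those of A375, a log2 difference (WM115 minus A375) of 4.86 (SE 0.16, limma adjusted p 2.37e-08). ITGA11, a collagen receptor chain typical of mesenchymal cells, was at 20.7, 19.8, 11.2 and 13.2 TPM against 1.21, 1.27, 0.089 and 0.358 TPM, a log2 difference of 3.34 (SE 0.29, limma adjusted p 1.55e-05). In neither gene did the lines overlap. ITGB8, an alphaV partner that helps to activate latent TGF-beta, was higher in WM115 (63.2 ± 6.4 TPM, SD, n = 4) than in A375 (17.7 ± 2.22 TPM, SD, n = 4), as was LAMB2 (254 ± 38.8 TPM, SD, n = 4, against 117 ± 59.3 TPM, SD, n = 4). The log2 differences were 1.78 (SE 0.14, limma adjusted p 6.27e-06) for ITGB8 and 1.22 (SE 0.29, limma adjusted p 0.00634) for LAMB2, whose ranges overlapped. ITGA10 and ITGA1, both collagen receptor chains, were higher in A375, with log2 differences of -2.04 (SE 0.42, limma adjusted p 0.00306) and -1.48 (SE 0.26, limma adjusted p 0.00111). ITGAM, the alpha chain of a leukocyte integrin, was higher in WM115 through some of its libraries only, at 3.43, 1.74, 0.189 and 11 TPM. Its log2 difference was 1.82 (SE 0.56, limma adjusted p 0.0227), and it met the 1 TPM rule for testing only through WM115.

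In A375, clone 1.2 was the clone with calls against WT in the unblocked fits. ITGB4 (ENSG00000132470, chromosome 17, 75721328 to 75757818, plus strand) encodes the long-tailed beta chain that pairs with alpha6 and anchors hemidesmosomes to laminin. Positions are in GRCh38. ITGB4 was at 177, 50.1, 139 and 145 TPM in the 4 libraries of clone 1.2 and at 6.3, 19.4, 1.56 and 3.93 TPM in WT. Every library of the clone lay above every WT library. The log2 difference, clone minus WT, was 4.15 (SE 0.63, limma adjusted p 0.000403). ITGA9 (ENSG00000144668, chromosome 3, 37452115 to 37823514, plus strand), whose integrin alpha9beta1 binds tenascin and osteopontin, was at 0.399, 0.147, 0.832 and 0.407 TPM in the clone against 15.9, 30.1, 7.43 and 4.41 TPM in WT, and again the groups did not overlap. Its log2 difference was -3.12 (SE 0.59, limma adjusted p 0.00255). LAMA1 was called too, but at low levels, with 0.941 to 1.62 TPM in the clone and at most 0.18 TPM in WT (log2 difference 1.04, SE 0.14, limma adjusted p 0.000124). Outside clone 1.2 no A375 library passed 0.412 TPM of LAMA1. It met the 1 TPM rule for testing only through clone 1.2, so its call was not independent of that rule. With LAMA1, 3 of 29 chains were called, 2 higher and 1 lower, against 4.01% (2.57% higher, 1.44% lower) of all 16692 genes. ITGB8, ITGA4 and LAMC1 had adjusted p-values of 0.0264, 0.0391 and 0.0408 in the limma fit, with log2 differences of 0.84, 0.55 and 0.69 that were too small for a call. Within the A375 libraries whose mitochondrial share was under 2.5% 0 of the chains tested there were called in this clone, LAMA1 not being tested, with ITGB4 and ITGA9 at log2 differences of 3.402 and -3.48 (limma adjusted p 0.0828 and 0.137).

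ITGA6, the alpha partner of ITGB4, was at 107 ± 14.8 TPM (SD, n = 4) in clone 1.2 and 98.5 ± 30.8 TPM (SD, n = 4) in WT, a log2 difference of 0.16 (SE 0.24, limma adjusted p 0.758). ITGB4 TPM per ITGA6 TPM was 0.393 to 1.87 in the libraries of clone 1.2 and 0.0168 to 0.334 in WT. In the other A375 clones this ratio was 0.00651 to 0.0842. ITGB4 was at 12.7, 3.47 and 4.96 TPM in clone 1.1, 2.96, 4.5, 0.995 and 1.47 TPM in clone 4.1 and 10.6, 0.859 and 3.78 TPM in clone 4.2, so clone 1.2 had the 4 highest values of the line. ITGA9 was at 8.04, 1.97 and 0.678 TPM in clone 1.1, 22, 30.4, 16.1 and 8.31 TPM in clone 4.1 and 6.6, 0.648 and 1.7 TPM in clone 4.2. Clones 1.1 and 4.2 overlapped WT in ITGA9, with log2 differences of -1.81 (SE 0.63, limma adjusted p 0.269) and -1.94 (SE 0.63, limma adjusted p 0.399).

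**Figure D3:**
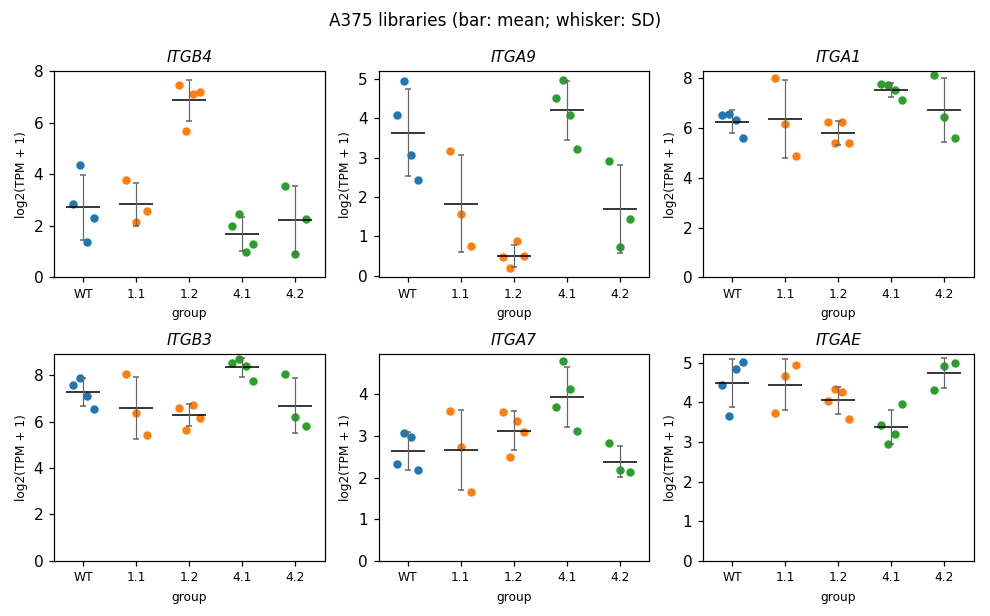
Level, as log2(TPM + 1), of 6 chains in each A375 library (points), with the group mean (bar) and SD (whisker). The 4 libraries of clone 1.2 lie at 50.1 to 177 TPM of ITGB4, above all others, and at most at 0.832 TPM of ITGA9, and library 1 of clones 1.1 and 4.2 is the highest of its group in ITGA1 and ITGB3.

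The other R1 clone of A375 did not show these calls. Against WT, 0 of 29 chains were called in clone 1.1, against 0.731% (0.186% higher, 0.545% lower) of all genes. At an unadjusted p under 0.05 in the limma fit there were 6 chains and 1679 of all 16692 genes. Set against each other in the fit of the whole line, clones 1.1 and 1.2 differed in 4 chains, all lower in clone 1.1, where 6.16% (1.47% higher, 4.68% lower) of all genes were called. These were ITGB4 (log2 difference, 1.1 minus 1.2, -4.03, SE 0.68, limma adjusted p 0.000868), ITGA10 (-1.91, SE 0.49, limma adjusted p 0.0168), LAMA1 (-1.05, limma adjusted p 0.000197) and ITGA4 (-1.04, limma adjusted p 0.000707). LAMA1 met the 1 TPM rule for testing only through clone 1.2. ITGA4, the alpha chain of the VCAM-1 receptor alpha4beta1, was at 21.3, 18.5 and 18 TPM in clone 1.1 and 34.3, 38.3, 41.4 and 50.6 TPM in clone 1.2, with WT between at 27.7 TPM on average. Filtered at a mean of 5 TPM, 2 chains were called, as they were without library 4 of clone 1.2, and a fit of the libraries of these clones alone called 4.

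In A375 R4 clone 4.1, same-numbered libraries of the clone and of WT deviated together, so the fit with the replicate number as a block is given beside the unblocked one. Unblocked, 0 of 29 chains were called, against 0.653% (0.246% higher, 0.407% lower) of all genes. At an unadjusted p under 0.05 in that limma fit there were 11 chains and 1758 of all 16692 genes. The median log2 difference was 0.38 over the 29 chains against -0.02 over all genes. Paired, 5 of 26 chains were called, 3 higher and 2 lower, against 1.61% (0.807% higher, 0.807% lower) of 15250 genes. ITGB3, the beta chain of the vitronectin receptor alphaVbeta3 of invasive melanoma, was at 363, 409, 338 and 216 TPM against 192, 236, 136 and 92.1 TPM in WT, paired log2 difference 1.06 (SE 0.096, limma adjusted p 0.000891). ITGA1 was at 218, 207, 184 and 139.9 TPM against 91.9, 92.3, 79.3 and 46.7 TPM, paired log2 difference 1.29 (SE 0.08, limma adjusted p 0.000238). Read by pairs, both genes were higher in the clone in 4 of 4 pairs. ITGA7, a laminin receptor chain best known from muscle, was higher by 1.301 paired (limma adjusted p 0.0016). ITGAE and ITGB4 were lower, with paired log2 differences of -1.101 and -1.03 (limma adjusted p 0.00303 and 0.0215). The unblocked limma adjusted p-values were 0.498 for ITGB3, 0.387 for ITGA1, 0.153 for ITGA7, 0.121 for ITGAE and 0.657 for ITGB4.

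In R4 clone 4.2, 0 of 29 chains were called against WT, against 0.473% (0.108% higher, 0.365% lower) of all genes. At an unadjusted p under 0.05 in the limma fit there were 4 chains and 1297 of all 16692 genes. The A375 R4 clones differed from each other in 2 chains, where 2.23% (1.28% higher, 0.953% lower) of all genes were called. ITGA9 was higher in 4.1 than in 4.2 (log2 difference 2.51, SE 0.63, limma adjusted p 0.036) and ITGAE lower (-1.36, SE 0.34, limma adjusted p 0.036), and 8 and 7 of the 13 alternative settings lost these calls. Leaving out library 1, 2 or 3 of clone 4.1, or library 2 or 3 of clone 4.2, left 0 calls, and leaving out library 4 of clone 4.1 or library 1 of clone 4.2 gave 5. Library 1 of clone 4.2 had 262 TPM of ITGB3 and 278 TPM of ITGA1, while the other libraries of the clone had 72.2 and 55.2 TPM of ITGB3 and 85.8 and 46.7 TPM of ITGA1. Library 1 of clone 1.1 was high in the same 2 genes, at 263 and 256 TPM.

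**Figure D4:**
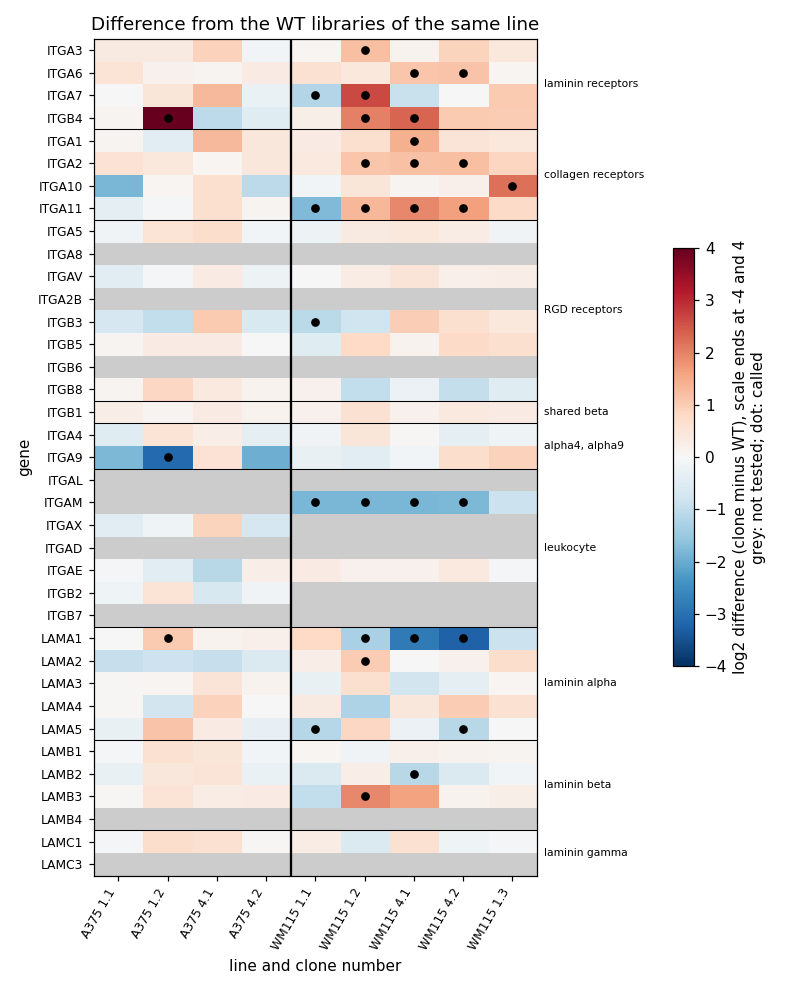
Log2 difference from WT of each chain (rows, by role) in the 9 clones (columns), red for higher and blue for lower than WT, with a dot where the difference was called in the unblocked fit and grey where the gene was not tested in that line. In WM115 the collagen receptor chains ITGA11 and ITGA2 are red with dots in clones 1.2, 4.1 and 4.2, and LAMA1 is blue with dots in the same clones.

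In WM115 clones 4.1 and 4.2, LAMA1 (ENSG00000101680, chromosome 18, 6941744 to 7117814, minus strand) fell and ITGA11, ITGA2 and ITGA6, which bind collagen or laminin, rose. LAMA1 was at 31.4, 33.2, 24.9 and 37.6 TPM in WT, 3.51, 4.19 and 3.2 TPM in clone 4.1 and 2.32, 2.19 and 2.84 TPM in clone 4.2. All 6 libraries of these clones lay below all WT libraries, and the log2 differences were -2.81 (SE 0.38, limma adjusted p 6.1e-05) and -3.24 (SE 0.38, limma adjusted p 2.74e-05). The share of LAMA1 in the laminin alpha sum was 1.74% ± 0.324 (SD, n = 3) in clone 4.1 and 0.937% ± 0.279 (SD, n = 3) in clone 4.2, against 15.8% in WT. ITGA11 was at 20.7, 19.8, 11.2 and 13.2 TPM in WT, 80.2, 46.9 and 64.5 TPM in clone 4.1 and 82.4, 30.1 and 52.9 TPM in clone 4.2, with log2 differences of 1.92 (SE 0.46, limma adjusted p 0.00627) and 1.63 (SE 0.46, limma adjusted p 0.0185). The ITGA11 gene lies at chromosome 15, 68296533 to 68432162, and ITGA2 at chromosome 5, 52989326 to 53094779. ITGA2, the alpha chain of the collagen and laminin receptor alpha2beta1, was at 9.93, 8.51, 9.47 and 6.74 TPM in WT, 21.8, 27.6 and 14.5 TPM in 4.1 and 28, 18.3 and 18.7 TPM in 4.2. Its log2 differences were 1.18 (SE 0.24, limma adjusted p 0.00212) and 1.22 (SE 0.24, limma adjusted p 0.0023). ITGA6 was at 57.6, 56.3, 77.5 and 43.8 TPM in WT, 126, 154 and 102 TPM in 4.1 and 180.5, 101 and 116 TPM in 4.2, with log2 differences of 1.11 (SE 0.33, limma adjusted p 0.02) and 1.14 (SE 0.33, limma adjusted p 0.0194). The ITGA6 calls were lost in 4 of 13 and 3 of 14 alternative settings. Without WT library 4 its differences were 0.98 and 1.01 (limma adjusted p 0.0603 and 0.0601). ITGA6 in clone 4.1 also lost its call without library 1 or 2 of that clone, ITGA2 without library 2, and ITGA6 and ITGA11 in clone 4.2 without its library 1. For ITGA11, ITGA2 and ITGA6 no library of clones 4.1 and 4.2 overlapped the WT range. Both clones were compared with the same 4 WT libraries, so these pairs of differences are not independent. Clone 1.3, which also carries R4_del, had 18.3, 11.7 and 21.7 TPM of LAMA1 and 30.2, 45.3 and 14.4 TPM of ITGA11. It had 17.8, 22.7 and 10.7 TPM of ITGA2 and 90.5, 79.8 and 31.2 TPM of ITGA6. None of these chains was called in clone 1.3.

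Other calls were made in 1 of the R4 clones. ITGB4 was at 11.8, 26 and 15 TPM in clone 4.1 against 3.88, 1.22, 3.68 and 2.09 TPM in WT (log2 difference 2.32, SE 0.57, limma adjusted p 0.00692) and at 7.63, 5.38 and 6.07 TPM in clone 4.2 (log2 difference 1.05, SE 0.57, limma adjusted p 0.199). ITGA1 was at 93.5, 52.9 and 75.3 TPM in clone 4.1 against 36.2, 29.8, 19.6 and 22.3 TPM in WT (log2 difference 1.42, SE 0.29, limma adjusted p 0.00181), and at 49.4, 30.4 and 36 TPM in clone 4.2. LAMB2, a beta chain of neuromuscular and renal laminins, was at 102, 100.2 and 149 TPM in clone 4.1 against 293, 268, 201 and 253 TPM in WT, a log2 difference of -1.12 (SE 0.23, limma adjusted p 0.00203). Chromosome 3, which carries LAMB2, had a median log2 difference of -0.35 over 920 tested genes in this clone, and with median-of-ratios scaling LAMB2 was at -0.98 (limma adjusted p 0.00426), just under the size a call needs. LAMA5 was at 22.5, 19.5 and 18.9 TPM in clone 4.2 against 53.1, 40.3, 34.8 and 54.6 TPM in WT, a log2 difference of -1.11 (SE 0.34, limma adjusted p 0.0257). That call was lost in 8 of 14 alternative settings, among them the omission of any library of clone 4.2 and median-of-ratios scaling, where the difference was -0.99 (limma adjusted p 0.0465). LAMB3 in clone 4.1 was at 31.8, 68.9 and 27.6 TPM against 18.7, 13.3, 8.7 and 10.3 TPM, did not overlap WT, and had a log2 difference of 1.603 (SE 0.599, limma adjusted p 0.0583). A direct contrast of clones 4.1 and 4.2 called 0 of 27 chains, against 2.63% (1.82% higher, 0.806% lower) of all genes, and 2 chains when only these groups were fitted. At an unadjusted p under 0.05 in the limma fit of the line there were 9 chains and 3620 of all 16997 genes.

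Altogether 8 of 27 chains were called in clone 4.1 (5 higher, 3 lower), against 7.57% (3.2% higher, 4.37% lower) of all 16997 genes, and 6 in clone 4.2 (3 higher, 3 lower), against 6.6% (2.52% higher, 4.08% lower). Of the 4 collagen receptor chains, 3 rose in clone 4.1 and 2 in clone 4.2, and of the 4 laminin receptor chains 2 and 1 rose. The laminin receptor chain ITGA7 was not called, but at 5.2, 3.32 and 3.47 TPM in clone 4.1 it lay below the WT range of 6.38 to 9.53 TPM. None of the 5 tested RGD receptor chains was called in either clone. ITGB3 was at 281 ± 24.4 TPM (SD, n = 3) in clone 4.1 and 144 ± 34.4 TPM (SD, n = 4) in WT, with a log2 difference of 0.99 (SE 0.35, limma adjusted p 0.0476) that fell just short of a call. All genes had a median log2 difference of -0.10 in clone 4.1 and -0.10 in clone 4.2, and the chains 0.17 and 0.21. In the set of libraries with a mitochondrial share over 7.5%, LAMA1 and ITGA2 were still called in clone 4.2 (log2 differences -3.21 and 1.03, limma adjusted p 0.00609 and 0.0296), and the other 4 calls were lost. Of clone 4.2 and WT, that set left out only library 1 of clone 4.2, so the share and that library cannot be told apart. With that library alone left out, 2 chains were called in clone 4.2. Without library 2 of clone 4.1, 5 were called in that clone.

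**Figure D5:**
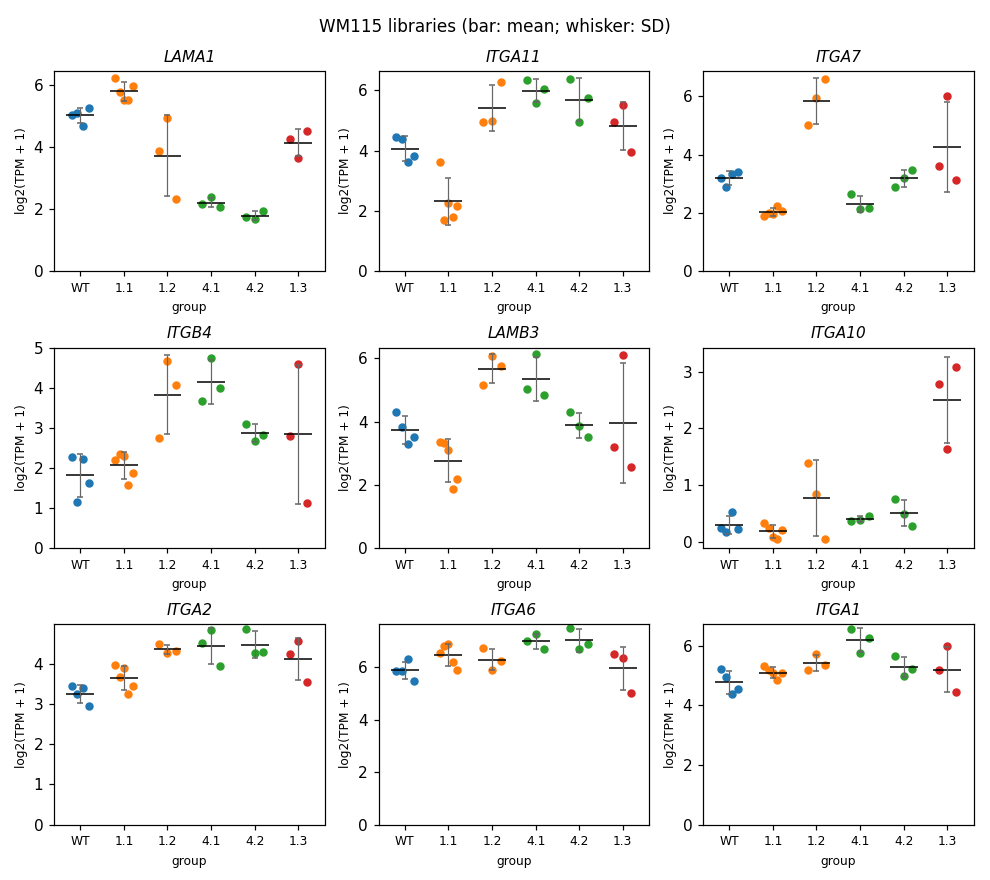
Level, as log2(TPM + 1), of 9 chains in each WM115 library (points), with the group mean (bar) and SD (whisker). LAMA1 is at most 4.19 TPM in the 6 libraries of clones 4.1 and 4.2, ITGA11 is lowest in clone 1.1 and ITGA7 highest in clone 1.2, and ITGA10 reaches 2.12 TPM or more only in clone 1.3.

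In the WM115 R1 clones, ITGA7 and ITGA11 fell in clone 1.1 and rose in clone 1.2. ITGA7 was at 8.08, 6.38, 9.11 and 9.53 TPM in WT, 2.69, 2.94, 2.88, 3.71 and 3.19 TPM in clone 1.1 and 31.2, 59.7 and 95.5 TPM in clone 1.2. The 5 libraries of clone 1.1 lay below WT and the 3 of clone 1.2 above it, with log2 differences of -1.18 (SE 0.405, limma adjusted p 0.044) and 2.64 (SE 0.46, limma adjusted p 0.00108). ITGA11 was at 11.4, 2.25, 3.77, 2.49 and 3.51 TPM in clone 1.1 and 29.6, 30.8 and 77.2 TPM in clone 1.2, against 20.7, 19.8, 11.2 and 13.2 TPM in WT. Its log2 differences were -1.75 (SE 0.41, limma adjusted p 0.00524) and 1.34 (SE 0.46, limma adjusted p 0.0435), and the call in clone 1.2 was lost in 10 of 14 alternative settings. Library 1 of clone 1.1 lay within the WT range and the other 4 below it, and chromosome 15, which carries ITGA11, had a median log2 difference of -0.39 over 575 tested genes in clone 1.1. LAMB3 was at 9.21, 8.93, 7.49, 2.64 and 3.54 TPM in clone 1.1 and 35.1, 66.3 and 53 TPM in clone 1.2, with log2 differences of -0.97 (SE 0.53, limma adjusted p 0.198) and 1.94 (SE 0.599, limma adjusted p 0.0275), of which the second was called. LAMA1 was at 74.2, 54.4, 44.7, 44.7 and 61.5 TPM in clone 1.1, above all WT libraries (log2 difference 0.78, SE 0.33, limma adjusted p 0.1), and at 13.8, 29.6 and 4.06 TPM in clone 1.2 (log2 difference -1.300, SE 0.38, limma adjusted p 0.0212).

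In clone 1.1, 5 of 27 chains were called, all lower, against 4.88% (1.22% higher, 3.66% lower) of all genes. Besides ITGA7 and ITGA11 these were LAMA5, at 21, 19, 13.3, 18.1 and 30.0 TPM (log2 difference -1.15, SE 0.296, limma adjusted p 0.00981), ITGB3, at 66.3 ± 10.4 TPM (SD, n = 5, log2 difference -1.09, SE 0.31, limma adjusted p 0.0169), and ITGAM. ITGA7 lost its call in 12 of 16 alternative settings, and median-of-ratios scaling, which moves the median of all genes from -0.12 to 0, left 3 calls. Without WT library 1, 2 or 4, 3 chains were called in this clone, and within the libraries of mitochondrial share over 7.5% 1 was. In clone 1.2, 9 of 27 chains were called, 7 higher and 2 lower, against 7.61% (4.49% higher, 3.11% lower) of all genes. Those not yet described were ITGB4, at 5.68, 24.6 and 16 TPM (log2 difference 2.01, SE 0.57, limma adjusted p 0.018), ITGA3, at 430.3, 408 and 536 TPM against 176, 205, 266 and 164 TPM in WT (log2 difference 1.19, SE 0.29, limma adjusted p 0.00976), ITGA2, at 21.5, 18.2 and 19 TPM (log2 difference 1.099, SE 0.24, limma adjusted p 0.00522), LAMA2 at 1.31 to 2.86 TPM, and ITGAM. Within the libraries of high mitochondrial share 4 chains were called in clone 1.2. All libraries of this clone and of WT were in that set, so only libraries of other clones left the fit. The count therefore does not test the share. Without WT library 2 or 4, 5 chains were called.

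Library 3 of clone 1.2 carried part of this. It had 10.7 TPM of LAMA4, against 156 and 72 TPM in the other libraries of the clone, and 31.8 TPM of ITGB3, against 169 and 97.1. It was also the highest of the 3 in ITGA7, ITGA11 and LAMA5 and the lowest in LAMA1. Without it, 2 of the 9 calls of clone 1.2 were left, ITGA7 (2.27, limma adjusted p 0.0132) and ITGA2 (1.12, limma adjusted p 0.0262). The log2 difference of LAMA1 became -0.61 and that of ITGA11 0.901, while LAMB3 stayed at 1.89 and ITGB4 at 1.89 with limma adjusted p-values of 0.114 and 0.0946.

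Compared with each other in the fit of the whole line, the WM115 R1 clones differed in 10 of 27 chains, 3 higher and 7 lower in clone 1.1, where 11.8% (3.25% higher, 8.51% lower) of all genes were called. The chains lower in clone 1.1 were ITGA7 (log2 difference -3.82, SE 0.44, limma adjusted p 7.21e-06), ITGA11 (-3.09, SE 0.44, limma adjusted p 5.35e-05), LAMB3 (-2.91, SE 0.57, limma adjusted p 0.000872), LAMA5 (-1.98, SE 0.32, limma adjusted p 0.000175), ITGB4 (-1.77), ITGB5 (-1.28) and ITGA3 (-1.097), with limma adjusted p-values of 0.0163, 0.000716 and 0.00579 for the last 3. Higher in clone 1.1 were LAMA1 (2.08, SE 0.36, limma adjusted p 0.000318), LAMA4 (1.604, limma adjusted p 0.019) and ITGB8 (1.15, limma adjusted p 0.000952). Without library 3 of clone 1.2, 6 of the 10 were still called: ITGA7, ITGA11, LAMB3, LAMA5, ITGB5 and LAMA1, at log2 differences of -3.44, -2.65, -2.86, -1.54, -1.27 and 1.39. A fit of these clones alone called 9, without LAMA4 (log2 difference 1.604, limma adjusted p 0.0977). ITGB5, another alphaV partner, was at 88.2 ± 16.7 TPM (SD, n = 5) in clone 1.1 and 212 ± 15.4 TPM (SD, n = 3) in clone 1.2.

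In WM115 clone 1.3, 1 of 27 chains was called, against 0.618% (0.424% higher, 0.194% lower) of all genes. ITGA10, a collagen receptor chain of cartilage, was at 5.89, 2.12 and 7.46 TPM against 0.192, 0.131, 0.446 and 0.17 TPM in WT. The log2 difference was 2.21 (SE 0.29, limma adjusted p 0.000299), and no library of WT or of the R1 and R4 clones of WM115 passed 1.62 TPM. Outside clone 1.3 only library 1 of clone 1.2 reached 1 TPM. ITGA10 thus met the 1 TPM rule for testing in WM115 only through clone 1.3, so its call was not independent of that rule. The libraries of clone 1.3 were unlike each other: library 2 had 63 TPM of ITGA7, 68.2 TPM of LAMB3 and 23.3 TPM of ITGB4, while libraries 1 and 3 had 11.3 and 7.68 TPM, 8.15 and 4.95 TPM, and 5.96 and 1.17 TPM. Library 3 had 6.23 TPM of ITGAM and a mitochondrial share of 19.4%, and cytosolic ribosomal protein genes took 11.5% of its TPM, a share of 12.0% to 13.6% in WM115 WT and of at least 16.2% in the other clone libraries of WM115. Without library 3, 3 chains were called in clone 1.3. With a filter at a mean of 5 TPM ITGA10 was not tested.

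ITGAM was lower than WT in clones 1.1, 1.2, 4.1 and 4.2 of WM115, with log2 differences of -1.82, -1.83, -1.83 and -1.795 and limma adjusted p-values of 0.0181, 0.0339, 0.032 and 0.0393. No library of these clones passed 0.104 TPM, and the WT values ran from 0.189 to 11 TPM. In WM115 only WT libraries 1, 2 and 4 and library 3 of clone 1.3 reached 1 TPM of ITGAM. The gene thus met the 1 TPM rule for testing only through WT, so its calls were not independent of that rule. All of them rest on the same WT libraries, and they are part of the counts of called chains given above. The calls were lost in 3 of 15, 9 of 13, 8 of 12 and 10 of 13 alternative settings in these clones. Leaving out WT library 1 or 4 ended each of them, as did leaving out any library of clones 1.2, 4.1 or 4.2 in that clone and, for clones 1.1, 1.2 and 4.2, keeping to libraries of high mitochondrial share. Without WT library 4 the log2 differences were between -1.26 and -1.22. Among the leukocyte markers, PTPRC and CD3E did not pass 0.483 and 0.214 TPM and CD14 1.19 TPM, while CORO1A reached 18.9 TPM, LAPTM5 99.98 TPM and CD68 757 TPM. The summed level of the 7 leukocyte markers was 409 to 506 TPM in WM115 WT, 255 to 393 TPM in clone 1.1, 465 to 766 TPM in clone 1.2, 454 to 566 TPM in clone 4.1 and 347 to 452 TPM in clone 4.2, and the part of other cells in ITGAM was not tested.

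With the clone as the unit, R1 and R4 were compared over 8 clone means, 4 per region, with the line as a covariate. Limma called 0 of 26 chains and 0 of 15287 genes (0%). At an unadjusted p under 0.05 there were 4 chains and 658 genes. ITGB3 (log2 difference, R1 minus R4, -1.41, SE 0.34, limma adjusted p 0.996), LAMA1 (1.56, SE 0.598, limma adjusted p 0.996), LAMA4 (-0.98, SE 0.38, limma adjusted p 0.996) and ITGA1 (-0.76, SE 0.28, limma adjusted p 0.996) were these 4 chains. The difference of that contrast between the lines was also called for 0 of 26 chains and 0 of 15287 genes (0%), with 2 chains, ITGA6 and LAMA1, and 390 genes at an unadjusted p under 0.05. The tests were two-sided, and these values do not show that the regions acted alike.

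The transcript table was used to see which forms make up the gene values. For ITGA6, transcripts with the alternative exon that encodes the alpha6A tail (ITGA6-201 and ITGA6-203) were set against the 4 that skip it and encode the alpha6B tail. The coding part of this exon, shown because it separates the forms, lies within the ITGA6 gene (ENSG00000091409, chromosome 2, 172427354 to 172506282, plus strand, GRCh38), and capitals mark the stop codon that ends the alpha6A reading frame.
ITGA6 alternative exon, coding part, chr2:172501772-172501879, plus strand: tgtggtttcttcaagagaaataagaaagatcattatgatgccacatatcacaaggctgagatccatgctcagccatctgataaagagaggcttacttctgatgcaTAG
The share with the exon was 59.3% ± 6.02 (SD, n = 4) in A375 WT and 68.9% ± 3.87 (SD, n = 4) in A375 clone 1.2, with ranges of 52.8% to 65.0% and 64.2% to 73.7% that overlapped slightly. In WM115 it was 64.5% ± 4.58 (SD, n = 4) in WT, 54.6% ± 3.89 (SD, n = 3) in clone 4.1 and 62.5% ± 7.19 (SD, n = 3) in clone 4.2. In clone 4.1 it lay at 50.1% to 57.4%, below the WT range of 57.9% to 68.1%. No test was run across transcripts.

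The gene values of ITGA1 and ITGAE rested on transcripts that are not annotated as coding. Transcripts annotated as protein-coding made up 1.55% to 4.27% of the ITGA1 TPM over the 39 libraries, with a median of 2.86%. The largest contributors were ITGA1-206 (a median of 48.3%), a processed transcript of 601 bases within an ITGA1 locus whose coding transcript ITGA1-201 is 10757 bases long, and ITGA1-208. The coding transcript alone was at 0.89 ± 0.197 TPM (SD, n = 4) in WM115 WT and 2.36 ± 1.02 TPM (SD, n = 3) in clone 4.1, with no overlap. In A375 it was at 2.09 ± 0.704 TPM (SD, n = 4) in WT and 4.9 ± 0.639 TPM (SD, n = 4) in clone 4.1, again with no overlap, so the direction seen at the gene level was the same. For ITGAE, the alphaE chain of intraepithelial lymphocytes, coding transcripts took at most 0.118% of the gene's TPM and ITGAE-207, a processed transcript of 672 bases, took a median of 80.6%. ITGAE-207 lies at the end of the gene and took 47.9% to 91.8% of the ITGAE TPM in single libraries. The rest came almost wholly from other transcripts that are not annotated as coding. Other chains rested mainly on coding transcripts, with a median coding share of 99.7% for ITGB1, 100% for LAMB3, 95.0% for ITGA2, 93.2% for ITGA6, 87.8% for LAMA1, 66.0% for ITGB4 and 51.7% for ITGA11, though for LAMB2 it was 47.1%.

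Genes around the integrins were followed in 4 lists. Of 33 integrin adaptors and activators, all tested in WM115, 4 rose and 2 fell in clone 1.2, 3 rose in clone 4.1, 3 rose and 1 fell in clone 4.2 and 2 fell in clone 1.1. Of all genes, 7.61%, 7.57%, 6.6% and 4.88% were called in these clones, which is the background for this list and the next 3. In clone 1.2 without its library 3, 2 rose and 0 fell, against 2.98% of all genes. In A375, 1 of 30 rose in clone 1.2 and none was called in the other clones. APBB1IP (RIAM), which carries talin to integrins, was at 0.084 TPM or less in WM115 WT, 1.97 ± 0.311 TPM (SD, n = 3) in clone 4.1 and 2.3 ± 0.613 TPM (SD, n = 3) in clone 4.2, with log2 differences of 1.48 (SE 0.45, limma adjusted p 0.0224) and 1.62 (SE 0.45, limma adjusted p 0.0163). It was higher still in R1 clone 1.2, at 11.4 ± 5.19 TPM (SD, n = 3), and at 0 TPM in R1 clone 1.1. The log2 difference in clone 1.2 was 3.47 (SE 0.45, limma adjusted p 0.000113), a call lost in 0 of 13 alternative settings. PXN, the focal adhesion scaffold paxillin, was at 97.2 ± 51.6 TPM (SD, n = 4) in WT, 179 ± 15.8 TPM (SD, n = 3) in clone 4.1 and 206 ± 37.4 TPM (SD, n = 3) in clone 4.2 (log2 differences 1.01, SE 0.35, limma adjusted p 0.0447, and 1.197, SE 0.35, limma adjusted p 0.0231). The APBB1IP calls in clones 4.1 and 4.2 were lost in 4 of 12 and 2 of 13 alternative settings, among them the omission of any library of clone 4.1 and, for clone 4.2, of its library 1. The PXN calls were lost in 8 of 13 and 7 of 14 settings, and without WT library 4 the differences were 0.75 and 0.94 (limma adjusted p 0.144 and 0.0798). Within libraries of high mitochondrial share, which leave out library 1 of clone 4.2, neither was called in that clone (limma adjusted p 0.138 for APBB1IP and 0.164 for PXN). The medians of the list, 0.17 and 0.04 in these clones, stand beside -0.10 in both for all genes.

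Among 26 integrin ligands other than laminins, 19 were tested in WM115, of which 4 rose and 1 fell in clone 4.1, and 3 rose and 1 fell in clone 4.2. FN1, fibronectin, was at 1151 ± 406 TPM (SD, n = 4) in WT, 4651 ± 1733 TPM (SD, n = 3) in clone 4.1 and 3831 ± 1049.8 TPM (SD, n = 3) in clone 4.2, with log2 differences of 2.01 (SE 0.39, limma adjusted p 0.00145) and 1.76 (SE 0.39, limma adjusted p 0.00456). SPP1, osteopontin, a ligand of alphaVbeta3 and alpha9beta1, went the other way: 617 ± 207 TPM (SD, n = 4) in WT, 20.9 ± 10.8 TPM (SD, n = 3) in clone 4.1 and 11.1 ± 2.52 TPM (SD, n = 3) in clone 4.2. Its log2 differences were -4.92 (SE 0.701, limma adjusted p 9.92e-05) and -5.64 (SE 0.701, limma adjusted p 4.51e-05), and the WT range of 403 to 896 TPM did not meet that of clones 4.1 and 4.2. The calls of FN1 and SPP1 in clones 4.1 and 4.2 held in every alternative run. Both genes were also called the same way in R1 clone 1.2, at log2 differences of 1.32 and -2.45 (limma adjusted p 0.0223 and 0.0192). Those calls were lost in 6 of 14 and 4 of 14 settings, among them the omission of library 3 of that clone. In WM115 clone 1.2, 4 ligands rose and 1 fell, or 1 and 0 without its library 3, and in A375 clone 1.2, 4 of 19 rose. In clone 1.1 of either line none was called. The share of all genes called was 4.01% in A375 clone 1.2.

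Of 25 basement membrane partners and other laminin receptors, 21 were tested in WM115, of which 3 rose and 5 fell in clone 1.2, 1 rose and 2 fell in clone 1.1, 3 rose and 1 fell in clone 4.1 and 1 rose in clone 4.2. COL4A3, a collagen IV chain, was low throughout and fell in both R1 clones, from 4.86 ± 0.763 TPM (SD, n = 4) in WT to 0.447 ± 0.0608 TPM (SD, n = 5) in clone 1.1 and 2.03 ± 1.55 TPM (SD, n = 3) in clone 1.2 (log2 differences -2.01, SE 0.24, limma adjusted p 1.29e-05, and -1.08, SE 0.27, limma adjusted p 0.00979). PLEC, plectin, which ties alpha6beta4 to intermediate filaments, rose in both, from 65.3 ± 21.9 TPM (SD, n = 4) to 138 ± 41.6 TPM (SD, n = 5) and 140.1 ± 22.9 TPM (SD, n = 3) (log2 differences 1.06, SE 0.26, limma adjusted p 0.00791, and 1.13, SE 0.300, limma adjusted p 0.0136). Without library 3 of clone 1.2, 1 of this list rose and 0 fell in that clone, and neither gene was called, at log2 differences of -0.67 and 1.12. PLEC in clone 1.1 was at 0.55 within libraries of high mitochondrial share (limma adjusted p 0.337) and lost its call in 6 of 16 alternative settings. PLEC was also called in clone 4.2 (1.004, SE 0.300, limma adjusted p 0.0242), a call lost in 8 of 14 settings. Of 14 tetraspanins and other membrane partners of integrins, 11 were tested in WM115, of which 2 rose and 1 fell in clone 4.1 and 2 fell in clone 4.2. CD36, a thrombospondin and fatty acid receptor that associates with integrins, was at 112 ± 49.7 TPM (SD, n = 4) in WT, 7.67 ± 4.81 TPM (SD, n = 3) in clone 4.1 and 7.58 ± 2.65 TPM (SD, n = 3) in clone 4.2, with log2 differences of -3.75 (SE 0.95, limma adjusted p 0.00905) and -3.64 (SE 0.95, limma adjusted p 0.0122). Its call was lost in clone 4.1 without library 2 of that clone (limma adjusted p 0.0507) and in clone 4.2 within libraries of high mitochondrial share (limma adjusted p 0.0996). That set leaves out library 1 of clone 4.2.

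Over all 16 comparisons, 21 of the 30 chains tested in either line were called at least once, against 35.1% of all tested genes, and 9 never were, among them ITGA5, ITGAV, ITGAX, ITGB1, ITGB2, LAMA3, LAMB1 and LAMC1. ITGAV, the alpha chain of the vitronectin receptors, ranged from 20.5 to 77.5 TPM, and ITGA5, that of the fibronectin receptor, from 59.4 to 213 TPM. Against WT, 15 of 27 chains were called in at least 1 WM115 clone, against 17.9% of all genes, and 3 of 29 in at least 1 A375 clone, against 4.97%, in the unblocked fits. These counts include LAMA1 in A375 and ITGAM and ITGA10 in WM115. Those chains met the 1 TPM rule for testing only through the group where they were high. ITGB1 had its largest difference from WT in WM115 clone 1.2, 0.598 (SE 0.15, limma adjusted p 0.0105), from 267 ± 19.8 TPM (SD, n = 4) to 406 ± 34 TPM (SD, n = 3).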

How the data were processed

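RNA-seq of polyadenylated RNA was measured in 39 libraries. Per the submitters' processing notes the reads were processed with DRAGEN on GRCh38, and the authors deposited TPM per gene and per transcript; the version, the annotation and the use of strand are not given in the sources used here. TPM keeps no depth, so its precision is unknown. The gene table has 60871 lines with 60671 distinct identifiers (the 200 repeated lines were dropped), and 6 value columns that match no sample were not used. Positions come from GENCODE release 29.

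Libraries were grouped by title and genotype labels. For each line, log2(TPM + 1) was fitted with limma 3.58.1 in R 4.3.3, 1 coefficient per group and a trended prior, on genes with at least 1 TPM in at least 3 libraries. P-values are two-sided and adjusted by Benjamini-Hochberg over all tested genes, and a call needs an adjusted p under 0.05 and a difference of at least 1. These differences understate changes of low genes. The comparison of WT lines was fitted on its 8 libraries and the comparison of regions on 8 clone means. The fits were tested on simulated data.

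Members and lists were chosen with earlier results of these data known. Chains are given with every library's value when called in at least 1 clone against WT with a mean of at least 5 TPM in WT or that clone, at most 12 per line by the size of the difference, and otherwise by means or ranges; further values of single libraries were chosen after they were seen. Genes of the 4 lists are named when both clones of a region show a call in 1 direction, at most 4 per list and line. Same-numbered libraries deviated together in 1 comparison, A375 clone 4.1 against WT (correlations of deviations from the group means of 0.33 to 0.78 over 4 pairs), so its fit with the replicate block stands beside the unblocked one; the labels do not say what a number shares. Alternatives were a pseudocount of 0.1, no filter, a mean of at least 5 TPM, median-of-ratios scaling, only the groups compared, the replicate block, each replicate left out and libraries of low or high mitochondrial share, divided at 2.5% in A375 and 7.5% in WM115. Among the 12 chains without a RefSeq promoter are ITGA3, ITGA7, ITGA9, ITGAD, ITGAL, ITGAX, ITGB2, ITGB3, ITGB4, LAMA1 and LAMC3. A chain counted among the members is not reported here by itself. The list counts and laminin shares of WM115 clone 1.2 without library 3 were added after seeing the data.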

Additional observations from a re-analysis of the deposited data

Results flagged for a closer look

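In 4 of 123 chain and group pairs with 4 or 5 libraries, 1 library stood apart from the rest of its group, and chance alone gives about 1 in 20. ITGA11 was at 11.415 TPM in library 1 of WM115 clone 1.1, above the other 4 libraries at 2.25 to 3.77 TPM. ITGA4 was at 42.715 TPM in library 1 of A375 clone 4.1, with the other 3 at 29.56 to 31.47 TPM. LAMA5 was at 60.362 TPM in library 2 of A375 WT, with the others at 14.68 to 18.51 TPM. LAMB3 was at 7.428 TPM in library 4 of A375 WT, below the others at 10.91 to 11.44 TPM.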

How the results depend on the processing

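Of 1069 alternative values for 78 gene differences, 865 kept their direction and side of the threshold, 198 lost a call, 6 gained one and 0 reversed. Of the 73 called differences, 26 were called in every alternative in which they were tested. Among them were LAMA1, ITGB4, ITGA11 and ITGA1 in WM115 clone 4.1, LAMA1 and ITGA2 in clone 4.2, ITGA7 in clone 1.2 and LAMA1 in A375 clone 1.2. LAMA1 met the 1 TPM rule in A375 only through clone 1.2 and was tested there in 10 alternatives. The numbers of chains called changed as follows, and the cause was not tested. With a pseudocount of 0.1, 1 chain was called in A375 clone 1.1 and 1 in clone 4.1. Low mitochondrial share left 0 in A375 clone 1.2, where LAMA1 was not tested, and high share left 1, 4 and 2 in WM115 clones 1.1, 1.2 and 4.2. For WM115 clone 1.2 the high set left out only libraries of other clones, so it does not test the share. Of clone 4.2 and WT it left out only library 1 of clone 4.2, so the share and that library cannot be told apart. WM115 clone 4.1 had 1 library in the high set and was not tested there. Median-of-ratios scaling left 3 in WM115 clone 1.1. A mean of at least 5 TPM left 0 in WM115 clone 1.3 and 2 between A375 clones 1.1 and 1.2, and no filter left 0 between A375 clones 4.1 and 4.2. Fitting only the groups compared gave 5 in WM115 clone 1.2, 1 between A375 clones 4.1 and 4.2 and 2 between WM115 clones 4.1 and 4.2. With the replicate block the counts were 5 in A375 clone 4.1, 1 in WM115 clone 1.2, 0 in WM115 clone 1.3, 2 between A375 clones 1.1 and 1.2, 1 between A375 clones 4.1 and 4.2, 5 between WM115 clones 1.1 and 1.2 and 2 between WM115 clones 4.1 and 4.2. What same-numbered libraries share is not known from the labels.

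Leaving out 1 library at a time gave 0 to 1 calls in A375 clone 1.1, 2 to 3 in clone 1.2, 0 to 1 in clone 4.1 and 0 to 0 in clone 4.2. In WM115 it gave 3 to 4 in clone 1.1, 2 to 12 in clone 1.2, 5 to 9 in clone 4.1, 2 to 8 in clone 4.2 and 1 to 3 in clone 1.3. Between clones it gave 2 to 5 (A375 1.1 and 1.2), 0 to 5 (A375 4.1 and 4.2), 6 to 12 (WM115 1.1 and 1.2) and 0 to 0 (WM115 4.1 and 4.2), between the WT lines 6 to 8, and for the region and its interaction with the line 0 to 0.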
